A study of Zea mays with 217 samples.

Results

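The genes described here are 150 maize genes that 4 transcription factors (TFs) of the EREB family, EREB17 (Zm00001d052229), EREB18 (Zm00001d018081), EREB34 (Zm00001d039077) and EREB71 (Zm00001d048208), all list as targets. They were chosen by the same deposited p-values that are described below. Of the 20067 target genes in the table, 671 (3.34%) were listed by all 4 TFs. After the genes of 18 profiled TFs were left out, 653 remained, and the 150 members are those of the 653 that the fewest of the other 100 profiled TFs listed, with ties broken by the lowest product of the 4 p-values.

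The table comes from ChIP-seq of 104 TFs in 217 libraries, 2 to 4 per TF and 2 for each of the 4 EREB TFs. In this assay DNA bound by a protein is pulled down and sequenced. All libraries were from leaf protoplasts, leaf cells without their walls, of B73 maize seedlings that were 1 to 2 weeks old. The paper describes these cells as mesophyll protoplasts. In each library the tagged TF was brought in by PEG transformation and pulled down with streptavidin beads. Binding was therefore measured for an introduced, tagged protein in isolated cells, and by the labels the groups differed only in the TF introduced.

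For each TF and gene the authors give 1 p-value from TIP, a model that scores how strongly a TF is bound around the start of a gene relative to its binding at all other genes. A gene is called listed by a TF when the table holds a p-value for that pair. All listed p-values are at most 0.05. The libraries of a TF were combined before this score was made. The values below therefore carry no replicate error and are given as descriptions, without a test. Read depth is not part of the table.

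EREB proteins belong to the AP2/ERF family, plant TFs that share a DNA-binding domain first described in APETALA2 and in the ethylene-responsive element binding factors. In Arabidopsis, members of the family bind the GCC box or the dehydration-responsive element and are known for roles in responses to ethylene, wounding, cold and drought and in the development of leaves and flowers. A gene that several related TFs list may be bound at the same or at different sites, which a p-value per gene does not separate. The files and the reference used here pair none of the 150 identifiers with a gene name or a description, so members are given by their identifiers and no function is assigned to them.

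Most members were also listed by many other TFs. A member was listed by a median of 23.5 of the other 100 TFs (range 0 to 37), against a median of 68 (range 37 to 95) for the other 503 genes that all 4 list. These numbers were used to choose the members. Counting the 4 TFs as well, the median member had 27.5 TFs, against 5 TFs for the median target gene of the whole table, and 83.6% of all target genes had no more than 27.5. The 4 TFs made up 50% or more of the TFs of 11 members, and 4 members had no more TFs than the median target gene. The 4 TFs gave 15.5% of all listings of the members, against 4.30% of all listings in the table, a difference that the rule fixes. The members are thus the least shared genes within a widely shared set, and genes listed mainly by the 4 TFs were the exception among them.

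A gradient of the same kind ran over the whole table. Genes that none of the 4 list had a median of 3 other TFs (13665 genes), and genes that 1 of the 4 lists had a median of 9 (3313 genes). The median was 22 for genes listed by 2 of the 4 (1531 genes), 40 for genes listed by 3 (887 genes) and 61 for genes listed by all 4 (671 genes). Genes with no TF outside the 4 became few along the same axis. There were 347 listed by 1 of the 4 and by no other TF, 48 listed by 2, 11 listed by 3 and 3 listed by all 4.

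**Figure D1:**
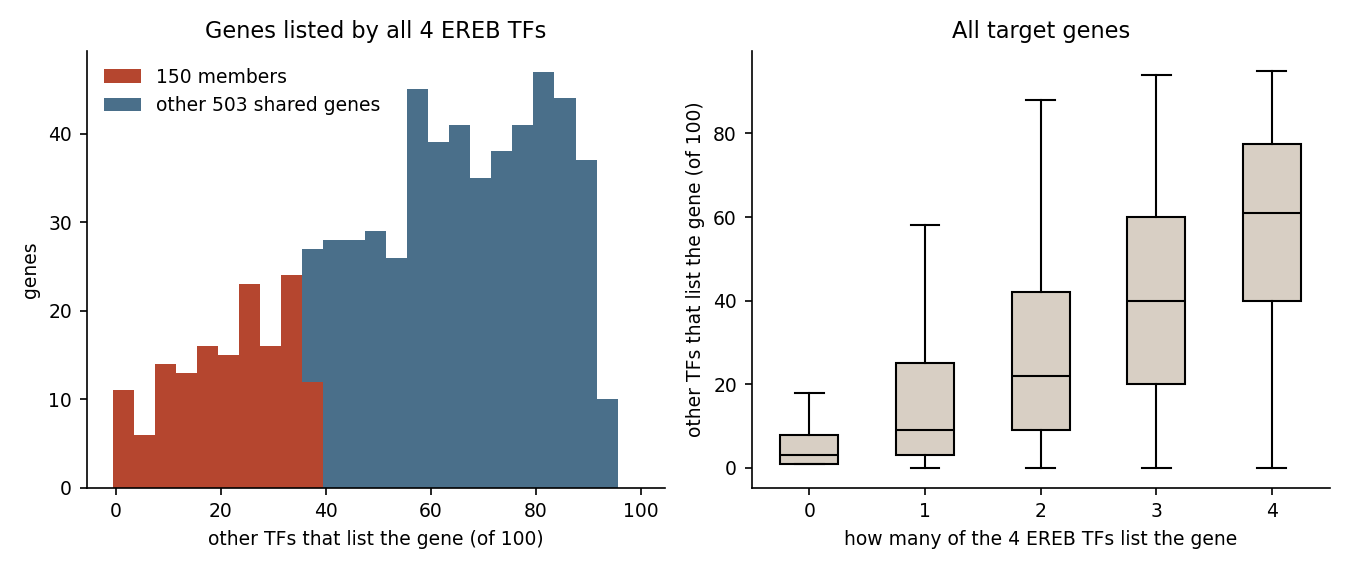
Left, histogram of the number of other TFs (of 100) that list each gene shared by the 4 EREB TFs, with the 150 members and the other 503 shared genes stacked. Right, the same number for all target genes by how many of the 4 EREB TFs list them (boxes, quartiles and median; whiskers, the farthest values within 1.5 times the box height). The members fill the range from 0 to 37, and the medians on the right are 3, 9, 22, 40 and 61.

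The same rule was applied to other sets of 4 related TFs, picked as sets of 4 from 1 family. The 150 least shared genes of the 4 EREB TFs, with their median of 23.5 other TFs, are 23.0% of the 653 shared genes. For DOF17, DOF21, DOF22 and DOF30, 370 genes were shared and the 150 least shared, 40.5% of them, had a median of 28. For MYB37, MYB56, MYB62 and MYB81, 410 genes were shared, the 150 least shared (36.6%) had a median of 52 and no gene had fewer than 16 other TFs. Since 150 genes are a smaller part of the EREB set, the medians are not like for like. Over all shared genes the medians were 60 (EREB), 58 (DOF) and 71 (MYB). These and the numbers of shared genes are not like for like either, since the sets differ in list length. The shortest list held 2477 genes in the EREB set (EREB18), 1603 in the DOF set (DOF21) and 1213 in the MYB set (MYB62).

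The 4 TFs listed 3294 (EREB17, 16.4% of all target genes), 2477 (EREB18, 12.3%), 2527 (EREB34, 12.6%) and 3422 genes (EREB71, 17.1%). EREB17 and EREB71 shared most targets in number, 1753 genes, which are 53.2% of the list of EREB17 and 51.2% of that of EREB71. EREB17 and EREB18 shared fewest, 1176 genes, which are 35.7% of the list of EREB17 and 47.5% of that of EREB18. The other 4 pairs shared between 1187 and 1449 genes. EREB17 and EREB71 also have the longest lists. As a share of the shorter list, the overlap with EREB71 was higher for EREB34 (57.3%) and EREB18 (55.5%).

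The members were in the main moderate targets of the 4 TFs, weaker than the widely shared genes. The median p of the members was 0.00368 for EREB17, against 6.95e-04 for the other 503 shared genes. It was 0.00677 against 1.95e-04 for EREB18, 0.00261 against 3.64e-05 for EREB34 and 0.00167 against 1.99e-04 for EREB71. TIP scales each TF by its own binding over all genes, so positions within the list of each TF are given as well. The median member stood at 36.9% of the target list of EREB17, counted from the lowest p, and at 57.1%, 47.1% and 32.2% of the lists of EREB18, EREB34 and EREB71. The median members thus lay in the upper part of 3 of the lists and in the lower part of that of EREB18. These positions went with list length, with the lowest percentages in the longer lists of EREB71 (3422 genes) and EREB17 (3294 genes). EREB34 listed 2527 genes and EREB18 listed 2477, and the part of list length in the positions was not tested. For the other 503 shared genes the 4 positions were 21.8%, 27.1%, 20.8% and 17.9%.

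**Figure D2:**
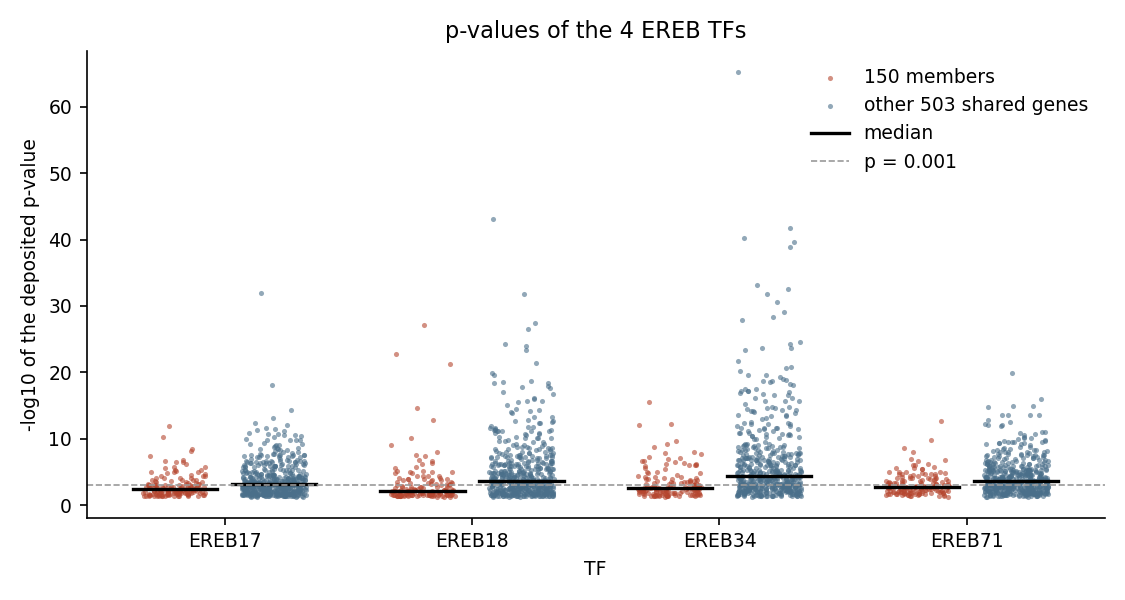
Deposited p-values of EREB17, EREB18, EREB34 and EREB71 as -log10 p (vertical axis) for the 150 members and, to their right, the other 503 shared genes. Points are genes, black bars are medians and the dashed line marks the strict limit of 0.001. The members' medians lie lower in every TF, and single members reach p-values as low as 7.66e-28.

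A p of at most 0.001 was taken as a strict call. It was met by 52 members for EREB17, where 4.01% of all target genes met it, and by 49 members for EREB18 (4.52%), 57 for EREB34 (4.84%) and 64 for EREB71 (4.76%). Every member is listed by all 4 TFs by construction, so these shares are not set against the background as a result. Of the targets of each TF, 24.4% (EREB17), 36.7% (EREB18), 38.5% (EREB34) and 27.9% (EREB71) met it. The corresponding shares of the members were 34.7%, 32.7%, 38.0% and 42.7%, which lie above those of the target lists for EREB17 and EREB71, below for EREB18 and about level for EREB34.

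The number of strict calls per member ran from 0 to 4. Of the 150 members, 35 (23.3%) had no strict call, 48 had 1, 36 had 2, 22 had 3 and 9 (6.00%) had all 4. Among the other 503 shared genes, 28 (5.57%) had none and 129 (25.6%) had all 4. The members with 1 strict call were split over the TFs, with 15 called by EREB17, 13 by EREB71, 12 by EREB34 and 8 by EREB18. By percent position, the best of the 4 belonged to EREB71 in 51 members, to EREB17 in 44, to EREB18 in 29 and to EREB34 in 26. EREB71 and EREB17 also have the longest lists.

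Across the 150 members, the -log10 p of any pair of the 4 TFs were weakly related. Spearman's rho ran from 0.08 (EREB17 and EREB18) to 0.32 (EREB17 and EREB71), and Pearson's r from 0.07 to 0.38 for the same pairs. Over the other 503 shared genes rho ran from 0.27 to 0.31. These are correlations across genes, which are not independent replicates and share the libraries of each TF, and the selection narrows the range of the values.

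The 10 members with the lowest product of the 4 p-values are split here by whether they met the strict call in all 4 TFs. Some genes on each side of this split had 1 TF well below the others. The lowest product belonged to Zm00001d045086, with p-values of 2.15e-06 (EREB17), 7.66e-28 (EREB18), 0.00494 (EREB34) and 9.11e-06 (EREB71), and 37 other TFs listed it. It ranked 10 in the list of EREB18 and 1389 in that of EREB34, so its place rests on EREB18. Zm00001d027375 had 1.74e-04 (EREB17), 1.93e-23 (EREB18), 0.0046 (EREB34) and 1.39e-10 (EREB71). It ranked 18 in the list of EREB18 and 34 in that of EREB71. With 11 other TFs it was the least shared of the 10.

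EREB18 also led in Zm00001d025757, with 0.0188 (EREB17), 5.24e-22 (EREB18), 2.82e-04 (EREB34) and 0.0157 (EREB71). Zm00001d036750 had 0.0424 (EREB17), 2.22e-15 (EREB18), 3.50e-07 (EREB34) and 0.00588 (EREB71), and Zm00001d044841 had 0.0103, 1.37e-13, 2.42e-06 and 8.08e-04 for the TFs in the same order. In all 5 genes EREB18 gave the lowest p, although EREB18 was also the TF in which the median member ranked worst. The 5 genes have 11 to 37 other TFs, and no other EREB TF is among the 16 of Zm00001d025757.

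The other 5 of the 10 met the strict call in all 4 TFs. Zm00001d020837 had 4.49e-11 (EREB17), 4.08e-05 (EREB18), 6.17e-10 (EREB34) and 2.40e-13 (EREB71), the lowest p of any member for EREB71, and ranked between 15 and 517 in the 4 lists. Zm00001d041418 had 2.01e-05, 8.57e-05, 2.46e-16 and 4.08e-06 in the same order. It was led by EREB34, with the lowest p of any member for that TF. Zm00001d012460 had 3.02e-09, 7.15e-06, 6.33e-07 and 2.16e-05, and with 16 other TFs it was the least shared of these 5. Zm00001d045491 (30 other TFs) and Zm00001d027454 (24 other TFs) had no p above 1.29e-04 in any of the 4. No member reached 1e-05 in all 4 TFs, whereas 31 of the 653 shared genes did. In at least 1 TF, 60 members reached it, a count that was not set against the other shared genes.

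At the other end, 3 members were listed by none of the other 100 TFs. Zm00001d050352 had p-values of 7.04e-04 (EREB17), 0.0391 (EREB18), 0.0377 (EREB34) and 0.00225 (EREB71), and Zm00001d050353, the next identifier, had 0.00137, 0.0489, 0.0481 and 0.00321 in the same order. Zm00001d016723 had 0.0326, 0.0198, 0.0410 and 1.85e-04. In each of the 3 genes, 2 of the 4 p-values lay between 0.0326 and 0.0489, near the limit of the table.

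Members with few other TFs were weaker targets in general. Of the 23 members with 0 to 9 other TFs, none had strict calls in 3 or 4 of the TFs and 11 had none. Of the 43 members with 30 to 37 other TFs, 17 had strict calls in 3 or 4 TFs and 5 had none. The median position in the list of EREB17 was 60.0% in the first of these groups and 24.3% in the second. For EREB71 the median positions were 36.4% and 26.2%, the smallest gap of the 4 TFs.

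The end of the list was not marked by a step in the values. The last 3 members were Zm00001d049643 (36 other TFs, product 4.10e-10), Zm00001d045086 (37, 7.40e-41) and Zm00001d044841 (37, 2.76e-24). The first 3 genes outside were Zm00001d039464 (3.35e-23), Zm00001d042180 (3.46e-16) and Zm00001d039197 (1.47e-11), all with 37 other TFs as well. Thus 2 of the 10 lowest products entered the list through the tie rule. When EREB18 was not required, 52 of the 150 members stayed in the list, and 74 stayed when EREB34 was not required.

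The other TFs differed widely in how many members they listed. In all, they listed members 3263 times, so that an average TF listed 21.8% of the members, against 13.0% of all target genes, a ratio of 1.67. The ratio is above 1 because members are widely listed genes, and a single TF is therefore read against 1.67 as well as against its share of all targets. The number of other TFs was used by the rule, and their identity was not. 45 TFs lay above that ratio, and 98 of the 100 listed at least 1 member. MYBR64 and bHLH91, with 462 and 21 targets in the whole table, listed none.

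EREB109, a further TF of the same family, listed more members than any other TF outside the 4. It listed 92 members (61.3%), against 406 (80.7%) of the other 503 shared genes and 14.3% of all target genes. Its ratio of 4.29 was the highest of the 100. Among members with 20 to 29 other TFs, EREB109 listed 70.2%, against 26.0% of all target genes with that many other TFs. Among members with 0 to 9 others it listed 39.1% (9 of 23), against 4.72% of such target genes. The members listed by EREB109 had a lower median p for each of the 4 TFs than the 58 members it did not list, with medians of 0.00203 against 0.00725 for EREB17, 0.00235 against 0.0123 for EREB18, 0.00195 against 0.00324 for EREB34 and 9.77e-04 against 0.00409 for EREB71. They also had more other TFs, a median of 26.5 against 17, and the part of that difference in the p-values was not tested.

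The other 9 EREB TFs spread from the top to the lower end. EREB198 listed 66 members (44.0%, against 15.6% of all target genes) and EREB102 listed 61 (40.7%, against 14.0%). EREB211 listed 45 members (13.1% of all target genes) and EREB172 listed 39 (12.3%). EREB97 listed 37 (13.6%), EREB147 listed 34 (13.1%) and EREB98 listed 34 (14.8%). At the lower end EREB209 listed 19 members (12.7%, against 10.8%) and EREB54 listed 15 of the 150 (against 11.6% of all target genes), so that membership of the family did not by itself go with a high share.

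Together the 10 other EREB TFs gave 442 of the 3263 other listings of members (13.5%), against 10.5% of those of the other 503 shared genes and 10.2% of those of the whole table. Counted per gene the order was the reverse, with a median of 3 other EREB TFs for members and 8 for the other 503 shared genes. Without EREB109 the share was 11.0% for the members and 9.25% for the whole table, and with strict listings alone it was 7.33% and 5.59%. The share was higher where the number of other TFs was low. It was 22.4% in members with 0 to 9 other TFs (24 of 107 listings), against 12.9% in all target genes of that range. In members with 30 to 37 it was 12.6%, against 9.48%. 127 members were listed by at least 1 further EREB TF. Of the 23 that were not, 3 are the members without any other TF. The same count was not made over all target genes, so it is not read as a result about the members.

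**Figure D3:**
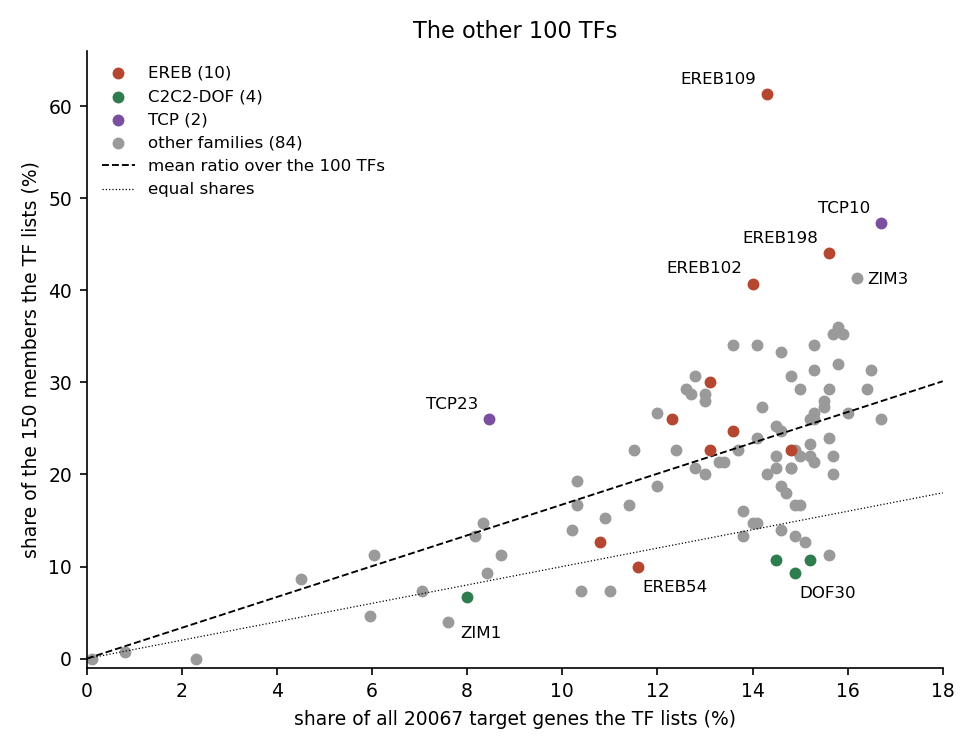
Each point is 1 of the other 100 TFs, with the share of the 150 members it lists (vertical axis, %) against the share of all 20067 target genes it lists (horizontal axis, %). The dotted line marks equal shares and the dashed line the mean ratio of 1.67. EREB109 stands at 61.3% of members, the highest point, while the 4 DOF TFs lie below the line of equal shares.

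Outside the family, TCP10 listed the most members, 71 (47.3%, against 16.7% of all target genes). TCP proteins are plant TFs known for control of cell proliferation in leaves. ZIM3, a TF of the ZIM family, which takes in the repressors of jasmonate signalling, listed 62 members (16.2% of all target genes). COL18 listed 54 members (15.8%), bHLH118 53 (15.7%) and HB70 53 (15.9%). MYB4 listed 51 (13.6%), ZIM16 51 (14.1%) and bHLH47 51 (15.3%). All of these TFs also listed 73.4% or more of the other 503 shared genes, so none of them is particular to the members.

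TCP23 had the second highest ratio, 3.07, with 39 members (26.0%) against 8.46% of all target genes. It was picked out after its values were seen. It gave more strict calls on members than any other TF, 34 of its 39, where 6.15% of all target genes have a strict call of TCP23. Of all targets of TCP23, 72.7% met the strict call, so that most of its listings are strict wherever they fall. In contrast 13 of the 92 listings by EREB109 (14.1%) were strict, against 17.1% of all its targets. Of the 71 by TCP10, 3 were strict, and its share over all its targets was not compared. Over all other TFs, 587 of the 3263 listings of members (18%) were strict, against 27.0% in the whole table. Counting strict listings alone, a member had a median of 3 other TFs, and 26 members had none.

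TFs of the C2C2-DOF family, plant zinc-finger TFs, listed few members. These TFs, ZIM1, ZIM28, MYBR64 and bHLH91 were picked out after their values were seen. DOF17 listed 16 members (14.5% of all target genes), DOF22 16 (15.2%), DOF30 14 (14.9%) and DOF21 10 (7.99%). All 4 lay below their own share of all target genes, although an average TF lay above it. Of the other 503 shared genes, DOF17 listed 35.4%, DOF22 36.0%, DOF30 37.2% and DOF21 50.1%, all above their own share of all target genes. An average TF listed more of these genes, which had a mean of 67.2 other TFs each. Fewer listings by DOF TFs than by an average TF were thus not particular to the members. The part of list length in these shares was not tested. In members with 0 to 9 other TFs, DOF TFs gave 3.74% of the other listings, against 9.19% for all target genes in that range. The members of that range have only 107 other listings. The shares were close in the range of 10 to 19 (3.93% against 4.67%) and apart again in those of 20 to 29 (1.20% against 3.39%) and 30 to 37 (1.17% against 2.91%). ZIM1 had the lowest ratio among TFs with a member, with 6 members (4.00%, against 7.60%), while 3 other ZIM TFs, ZIM3, ZIM16 and ZIM28, had ratios of 2.56, 2.40 and 2.39.

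Of the 11 members with at most 3 other TFs, 3 had none. The other TFs of the rest are named here, each with its deposited p-value in parentheses. EREB109 was among them in Zm00001d023733 (0.0359), which DOF22 (0.0461) also listed. It was also among those of Zm00001d006342 (0.0364), with EREB102 (0.0043) and NAC109 (0.0219). Zm00001d024088 was listed by EREB109 (0.043), EREB198 (0.0118) and EREB97 (0.0267) besides the 4. It was thus listed by 7 EREB TFs and by no TF outside the family. None of these 7 listings was strict. The p-values of the 4 were 0.0257 (EREB17), 0.0346 (EREB18), 0.0124 (EREB34) and 0.00239 (EREB71). GLK53, a TF of the family that takes in the chloroplast regulators of the GOLDEN2-LIKE type, was the only other TF of Zm00001d031994 (0.00106). It listed 17 members (11.3%), below its share of all target genes (15.6%). GLK53 also listed the adjacent identifier, Zm00001d031993 (0.00878), together with bHLH118 (0.0377). No further EREB TF listed Zm00001d048506, with GLK11 (0.00583) and GLK25 (0.0485), or Zm00001d007839, with COL18 (0.0204) and bZIP40 (0.0179). The same held for Zm00001d045065, with ALF2 (0.0156), C3H40 (0.00219) and DOF21 (0.0405). GLK53 and the genes with 2 or 3 other TFs, with those TFs, were named after their values were seen.

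Several members lie side by side. Identifiers of this annotation are numbered along the genome, and 16 members formed 8 pairs of consecutive identifiers. Of the 118 members whose next or previous identifier was also in the table, 25 (21.2%) had a neighbour that all 4 TFs list. The share was 25.4% for the other 503 shared genes (115 of 453) and 5.55% for all target genes (870 of 15673), so it goes with being listed by all 4 and is not particular to the members. No coordinates were used, and whether the genes of a pair share a start region was not tested.

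Both genes of a pair mostly had like p-values. Over the 8 pairs and 4 TFs the median difference in -log10 p was 0.32, against 1.19 over all pairs of members, and 19 of the 32 differences were below 0.5. Zm00001d007901 and Zm00001d007902 had 1.29e-07 and 7.93e-07 for EREB34 and 0.00788 and 0.00834 for EREB17, and shared 30 of their 33 and 35 other TFs. Zm00001d012464 and Zm00001d012465 had 1.80e-07 and 5.93e-07 for EREB71, with no other p below 0.00251, and shared 6 of their 8 other TFs each. In Zm00001d025918 and Zm00001d025919, EREB71 again led with 1.76e-05 and 1.48e-06, and 18 of 20 and 28 other TFs were shared. Each of these pairs was thus led by the same TF in both genes.

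Other pairs were weak or unequal. Zm00001d003981 and Zm00001d003982 had p-values between 9.75e-04 and 0.0333. Zm00001d007079 and Zm00001d007080 had 0.00574 and 1.93e-07 for EREB34, with 36 other TFs each, of which 23 were shared. The greatest difference was in Zm00001d027374 and Zm00001d027375, with 8.92e-09 and 1.93e-23 for EREB18, a gap of 14.67 in -log10 p. The weaker gene of that pair had 36 other TFs and the stronger had 11, of which 10 were shared. The pairs Zm00001d050352 with Zm00001d050353 and Zm00001d031993 with Zm00001d031994 hold 4 of the 11 members with fewest other TFs.

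**Figure D4:**
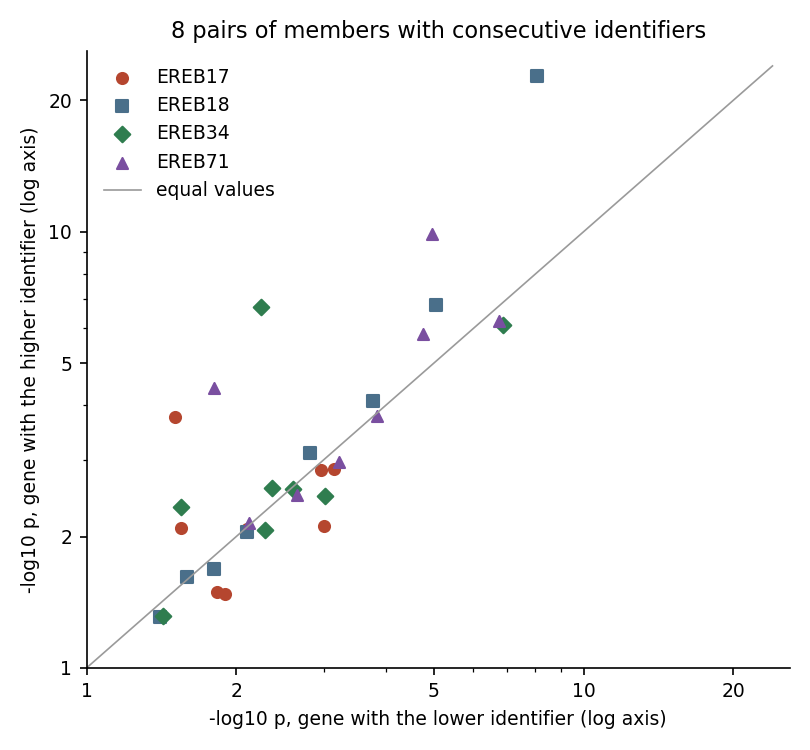
The -log10 p of the gene with the higher identifier (vertical axis) against that of the gene with the lower identifier (horizontal axis), both on log axes, for 8 pairs of members with consecutive identifiers and the 4 EREB TFs (32 points). Most points lie near the line of equal values, and the point farthest from it in -log10 p is that of EREB18 in Zm00001d027374 and Zm00001d027375.

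The genes of profiled TFs that were left out of the list were far more shared than the members. All 18 that the 4 TFs list had between 47 and 91 other TFs. They include 5 genes of the EREB family itself, EREB54, EREB97, EREB98, EREB147 and EREB209, and EREB147 had p-values of 4.36e-17 (EREB17), 3.96e-12 (EREB18), 2.32e-28 (EREB34) and 3.93e-14 (EREB71). The genes of the 4 TFs were not joint targets. The gene of EREB17 was listed by EREB18 (8.93e-18), that of EREB34 by EREB18 (1.28e-04) and by EREB34 (0.00102), that of EREB18 by none of the 4, and that of EREB71 was not in the table. Peaks in the own locus of each TF had been removed by the authors, which bears on the values of a TF at its own gene. Of 8 genes of C4 photosynthesis, the carbon-concentrating pathway of maize leaves, CA1, a carbonic anhydrase, was listed by EREB18 (9.93e-04), EREB34 (0.00378) and EREB71 (0.00429). NADP-MDH, a malate dehydrogenase, was listed by EREB71 (0.00585), and the other 6 by none of the 4. None was a member, where members are 0.747% of all target genes.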

How the data were processed

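The authors aligned the ChIP-seq reads to B73 RefGen_v4 with Bowtie2 2.2.5 and handled alignments with SAMtools 1.3 and deepTools (versions from the submitters' processing notes). Per the paper's methods, peaks were called with SPP against input, reproducible peaks were kept, and peaks in blacklisted regions or in the locus of the introduced TF were removed. The authors then deposited p-values of TIP, 1 per listed TF and target gene (272627), with replicates pooled and a stated FDR threshold of 5%. TIP's version was not given in the sources used here, and read depth is not part of the table, so the precision of the values is unknown.

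The table was read as deposited with Python 3.11.15, pandas 2.3.3, numpy 2.4.6 and scipy 1.17.1, and the selection was tested on simulated data. Libraries were assigned to TFs by the TF number and gene in their labels. TF names and families were those of the study's list. Shares are of all 20067 target genes. The table holds no values per replicate, so nothing was tested. The members and lists were chosen with earlier results of these data known. Genes were named by rule: the 10 lowest products of the 4 p-values, members with no other TF, 3 genes on each side of the list's end, members with consecutive identifiers, the 10 TFs listing most members and the EREB TFs. Other TFs and genes were named after their values were seen, and the text says so beside them. A tie at the tenth place adds bHLH47. The reference matched 1 of the target identifiers and no member, so sequences, motifs and functions were not analysed here.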

Additional observations from a re-analysis of the deposited data

How the results depend on the processing

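With a limit of p of at most 0.001, 138 genes were shared by the 4 TFs, and 31 with 1e-05, against 653. When other TFs counted only with p of at most 0.001, the median number of other TFs per member was 3, against 23.5, and 26 members had no other TF, against 3. At that limit the 10 other EREB TFs gave 7.33% of the other listings of members (5.59% in the whole table). Their share was 14.8% in a list of 100 genes and, in an alternative added after the data were seen, 11.0% without EREB109, against 13.5%. Both of these shares also lay within a factor of 1.5 of 13.5%. Without the requirement of EREB18 or of EREB34, 52 and 74 of the 150 members stayed in the list. In 18 other recalculations values stayed within a factor of 1.5. They covered list sizes of 100 and 200, the tie rules, the number of shared genes with any 1 of the 4 TFs not required, the list without EREB17 or EREB71 required, EREB TFs not counted and identifiers up to 5 apart. The planned motif search was not run, since no promoter was matched to the identifiers. No paired analysis was possible because replicates are pooled in the table, and no replicate could be left out for the same reason.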
